A study of Oryza sativa with 6 samples.

Results

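The genes described here are those that carry a glutathione S-transferase domain in the rice embryo. A gene was a member if its deposited Pfam annotation named the N-terminal domain (GST_N or GST_N_3) or the C-terminal domain (GST_C) of these enzymes. Of the 61955 genes in the table, 81 carried such a domain. Genes described as dehydroascorbate reductase were left out, which removed 1 gene (OsZS_06G0115600) and left 80 members. A second gene of that kind, OsZS_05G0014500, stayed in because its descriptions name it only as DHAR1. RNA was sequenced from embryos of a pair of near-isogenic lines, with 3 samples per line at day 15 after flowering. NIL-D (EG) carries the giant embryo allele of the local indica cultivar Dapeimi at GE, a cytochrome P450 gene, and its labels give the genotype as CMP-/-. NIL-X (CG) carries the segment of the other parent, an indica restorer line with a normal embryo and is labelled wild type. Both lines came from selfed progeny of a cross between these parents, and how much other donor sequence each line retained is not given in the sources used here.

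Glutathione S-transferases join the tripeptide glutathione to reactive or foreign compounds, which are then moved into the vacuole by ABC transporters. In plants the tau and phi classes are large, plant-specific and best known for herbicide detoxification, and many of their genes lie in tandem arrays. Other classes have housekeeping roles, such as tyrosine breakdown (zeta) or thiol transfer (lambda), and the same fold is found in a translation factor and in some aminoacyl-tRNA synthetases.

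By their best protein hits, 45 members were of the tau class, 14 phi, 3 zeta, 3 lambda, 1 theta and 1 of the TCHQD class, named after a bacterial dehalogenase. The other members were 3 gamma subunits of elongation factor 1, 3 aminoacyl-tRNA synthetases, 2 glutathionyl-hydroquinone reductases, the DHAR1 gene and 4 genes of other kinds. Both domains were annotated in 64 members, the N-terminal one alone in 11 and the C-terminal one alone in 5. All 3 synthetases had the C-terminal domain alone. The DHAR1 gene, TCHQD and all 3 elongation factor subunits had both.

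Expression was deposited as TPM, the share of a gene among all transcripts after correction for its length, so levels can be set beside each other between genes. In each sample all TPM add up to 1000000 within rounding, and the values hold no read counts. Embryo markers (oleosins, late embryogenesis abundant proteins and 7S globulins, 28 of 30 genes above 0) summed to between 61602 and 72729 TPM in NIL-D and between 72728 and 76300 TPM in NIL-X. Within them, the late embryogenesis abundant genes summed lower in NIL-D (16410, 18940 and 31060 TPM, beside 32380 to 34190 TPM), the 7S globulins higher (7671 to 8660 TPM, beside 6550 to 7010 TPM), and the oleosins overlapped. Endosperm markers (glutelins, prolamins, 19 kDa globulin and granule-bound starch synthase, 32 of 34 genes above 0) were not absent. They summed to 7609, 11041 and 5062 TPM for NIL-D in the order of its replicate numbers, and to 8531, 18254 and 19743 TPM for NIL-X. Green tissue markers (15 of 19 genes above 0) summed to 230 to 556 TPM in NIL-D and to 428 to 630 TPM in NIL-X. The part of these tissues in the results below was not tested. NIL-D replicate 3 stood apart: over all tested genes its median deviation from the mean of its line was 0.27 on the log2(TPM + 1) scale, against 0.11 to 0.17 in the other samples. It was the lowest sample of its line for 26 of the 44 tested members.

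Of the 80 members, 10 were listed at 0 in all 6 samples, 26 had a mean TPM below the minimum of 0.5 for testing, and 44 were tested among 21500 genes. A mean of at least 10 TPM was reached by 23 members and one of at least 100 TPM by 5. Differences were tested with limma on log2(TPM + 1), and a gene was called at an adjusted p (Benjamini-Hochberg) under 0.05 together with a log2 fold change of 1 or more in size. One member was called, the tau gene OsZS_07G0285300, which was lower in NIL-D. That is 2.27% of the tested members, and 0.642% of all tested genes were called (138, of which 57 were higher in NIL-D; 72 of 126 with quantile normalization and 75 of 135 after rescaling samples by their median ratio). The share called and lower in NIL-D was 0.377% of all tested genes. For 14 members (31.8%) the values of both lines did not overlap, beside 24.3% of all tested genes. Among these, 6 members (13.6%) lay higher in NIL-D, where 4.53% of all tested genes did so, and 8 (18.2%) lay higher in NIL-X, beside 19.7% of all tested genes. Of the 6 that lay higher in NIL-D, 5 belonged to one array of tau genes on chromosome 10.

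The log2 fold change of NIL-D over NIL-X lay between -0.5 and 0.5 for 30 of the 44 and reached 1 or more in size for 3. Its median over the members was -0.09, and that over all tested genes was -0.15. Median-ratio rescaling moved the median of all tested genes from -0.15 to 0.0016, so positions relative to that median are also given: 26 members lay above it and 18 below. An unadjusted p below 0.05 was found for 10 members, 22.7% of those tested, beside 15.6% of all tested genes. In these bulk embryo samples, fewer cells of a type and less RNA per cell cannot be told apart.

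**Figure D1:**
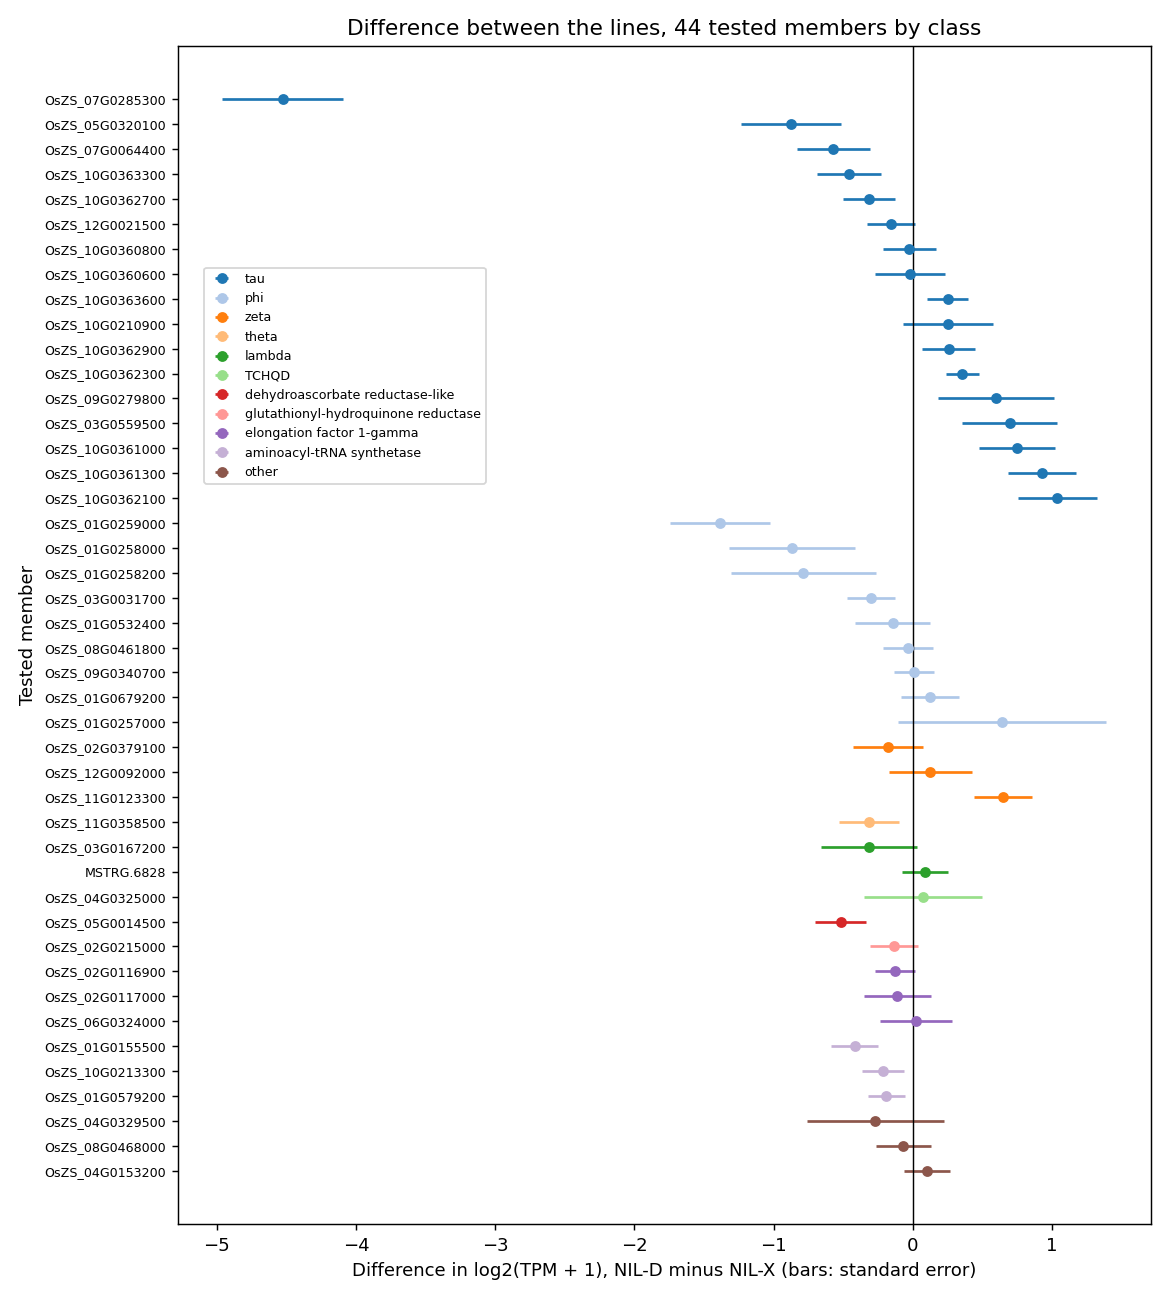
Difference between the lines for each of the 44 tested members, grouped by class (colours); the x axis is the difference in log2(TPM + 1), NIL-D minus NIL-X, and the bars are standard errors from limma. OsZS_07G0285300 lies at -4.53, and the tau genes with values above 0 include 6 of the chromosome 10 array.

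The called gene, OsZS_07G0285300, lies on chromosome 7 in the order of the gene names, is 1260 bp long and has rice GSTU1 as its best Swiss-Prot hit. GSTU1 is a tau enzyme, the class best known for conjugating herbicides. It had 154, 114 and 48.0 TPM in the NIL-X samples, listed here and below in the order of their replicate numbers, but 2.10, 3.91 and 3.68 TPM in NIL-D. Every NIL-X sample was thus more than 10 times any NIL-D sample, although NIL-X itself spread widely. The means were 3.23 ± 0.99 TPM across the NIL-D samples versus 105 ± 53.6 TPM across NIL-X (SD, n = 3), a 32.6-fold difference. On the log2 scale it fell by 4.53 (SE 0.43, limma adjusted p = 0.0105), which is -4.37 relative to the median of all genes, and lay lower in 3 of 3 NIL-D samples. Its direction was the same whichever sample was left out (log2 fold change -5.01 to -4.18). The adjusted p rose above the limit without NIL-D replicate 2 (0.0562), NIL-X replicate 1 (0.0541) or NIL-X replicate 2 (0.0627), and was lowest without NIL-X replicate 3 (0.00675). With the replicate number as a block it was 0.0661; the lines shared 3 field plots, but which number stands for which plot is not given in the sources used here. Its 3 NIL-X values ran opposite to the endosperm marker sums given above, being highest in replicate 1, where that sum was lowest. Its NIL-D values did not, as NIL-D replicate 2 had both the highest value and the highest sum of its line. The part of endosperm RNA in these values was not tested.

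The genes around OsZS_07G0285300 were examined because the lines differ by descent on chromosome 7, where GE lies. By the gene name the study gives it, GE itself lies outside the genes examined, which run from OsZS_07G0281800 to OsZS_07G0289200. Among the 10 nearest tested genes on each side, 3 of 20 were called, all lower in NIL-D, and 7 (35.0%) did not overlap between the lines, beside 24.3% of all tested genes. Over the whole of chromosome 7, 13 of 1576 tested genes were called (0.825%). The nearest called neighbour, OsZS_07G0286700, was listed at 0 in NIL-D and had a mean of 2.12 TPM in NIL-X. The third tested gene on that side, OsZS_07G0287600, had 0.193 TPM for NIL-D compared with 72.3 TPM for NIL-X (log2 fold change -5.94, limma adjusted p = 0.000109). The tested gene between these neighbours, OsZS_07G0287100, had a log2 fold change of 0.57 and was not called. Whether the low level of OsZS_07G0285300 belongs to a segment inherited from one parent was not tested.

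**Figure D2:**
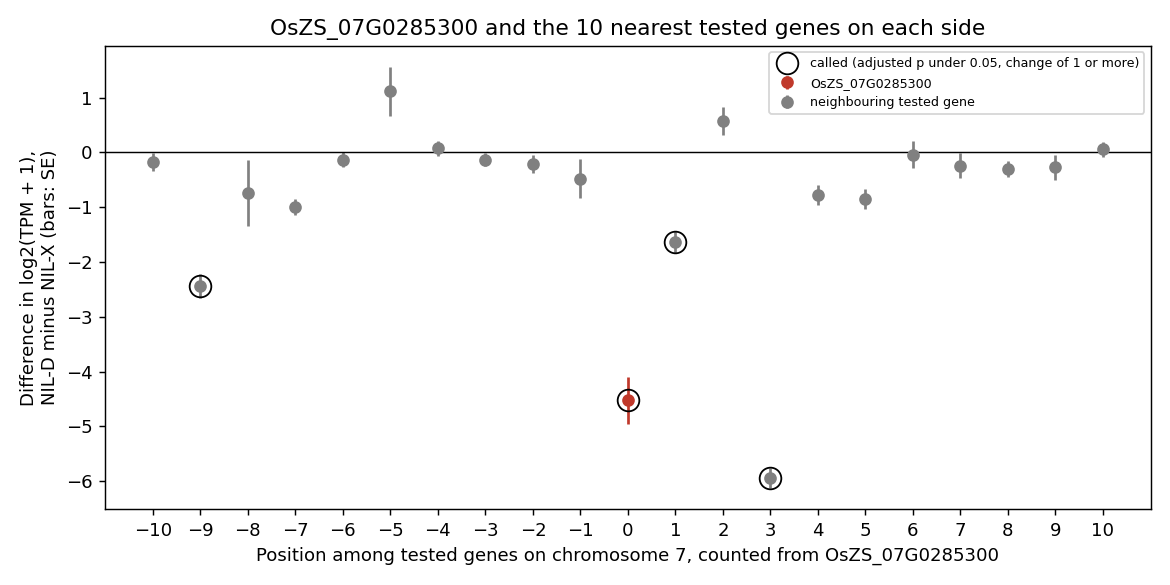
OsZS_07G0285300 (red) and the 10 nearest tested genes on each side (grey) in the order of the gene names; the y axis is the difference in log2(TPM + 1), NIL-D minus NIL-X, with standard errors, and circles mark called genes. The 4 circled genes all lie below 0, at -1.63 to -5.94, among 17 genes that were not called.

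The largest group of members was a tandem array of tau genes on chromosome 10, from OsZS_10G0360100 to OsZS_10G0364200. It holds 25 members within 42 genes, with at most 5 genes between neighbouring members. Rice GSTU6 was the best Swiss-Prot hit of 23 of them and Arabidopsis GSTU17 that of the other 2, so the reads of similar copies may have been split between them by the authors' counting. Of the 25, 4 were listed at 0 in every sample, 11 were below the minimum for testing and 10 were tested. Very few of them carried the expression of the array. The 4 leading genes gave 97.9% to 98.7% of the summed TPM of the array in each sample, and OsZS_10G0362300 alone gave 58.2% to 70.4%.

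As a sum, the array lay higher in NIL-D, although 4 of its 10 tested members had log2 fold changes below 0. Its summed level was 516, 456 and 501 TPM across the samples of NIL-D, set against 325, 365 and 372 TPM for NIL-X, with no overlap. The means were 491 ± 31.4 and 354 ± 25.1 TPM (SD, n = 3), a ratio of 1.39 (two-sided exact permutation p = 0.1, the smallest that 3 against 3 samples allow; 0.375 adjusted over 15 sums). Leaving out any one sample gave a difference between 123 and 155 TPM. Of its 10 tested members, 5 (50.0%) lay higher in NIL-D without overlap, beside 4.53% of all tested genes. Without overlap, 1 (10%) lay higher in NIL-X, beside 19.7% of all tested genes. None was called, beside 0.642% of all tested genes. An unadjusted limma p below 0.05 was found for 4, beside 15.6% of all tested genes. After median-ratio rescaling, an alternative chosen after the data were seen, 6 of 10 lay higher in NIL-D without overlap, beside 10.8% of all tested genes. The median log2 fold change of the 10 was 0.25, which is 0.41 above the median of all tested genes, and 8 of the 10 lay above that median.

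OsZS_10G0362300 was the most highly expressed tau gene. It had 300.0, 281 and 320 TPM in embryos of NIL-D against 229, 239 and 235 TPM in those of NIL-X. Both lines were tight, and every NIL-D sample lay above every NIL-X sample, with a difference of means of 0.36 on the log2 scale (SE 0.12, limma adjusted p = 0.256). OsZS_10G0361300 had 125, 92.7 and 94.6 TPM across the NIL-D samples versus 38.0, 59.4 and 69.0 TPM across NIL-X. The difference was 0.93 on the log2 scale (SE 0.24, adjusted p = 0.184), and the lines did not overlap. For OsZS_10G0362100 the levels were 27.0, 25.1 and 13.4 TPM for NIL-D compared with 8.03, 9.82 and 11.4 TPM for NIL-X. NIL-D replicate 3 was the sample nearest to NIL-X here, and the log2 fold change of 1.04 (SE 0.28, adjusted p = 0.190) became 1.34 with an adjusted p of 0.0186 when that sample was left out, which met the limits for a call. OsZS_10G0363600, the remaining leading gene, named after its values were seen, had 57.2, 49.7 and 66.6 TPM in embryos of NIL-D against 43.6, 50.8 and 50.2 TPM in those of NIL-X, and these overlapped (log2 fold change 0.25).

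The low members of the array lay on both sides. OsZS_10G0361000 had 1.67, 1.43 and 1.02 TPM across the NIL-D samples versus 0.76, 0.57 and 0 TPM across NIL-X (log2 fold change 0.75, limma adjusted p = 0.277). OsZS_10G0362900, also named after its values were seen, averaged 0.713 TPM for NIL-D compared with 0.43 TPM for NIL-X without overlap (log2 fold change 0.26). In the other direction, OsZS_10G0362700 averaged 0.793 TPM in embryos of NIL-D against 1.22 TPM in those of NIL-X (log2 fold change -0.32). At levels near 1 TPM the added pseudocount of 1 understates a fold change.

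**Figure D3:**
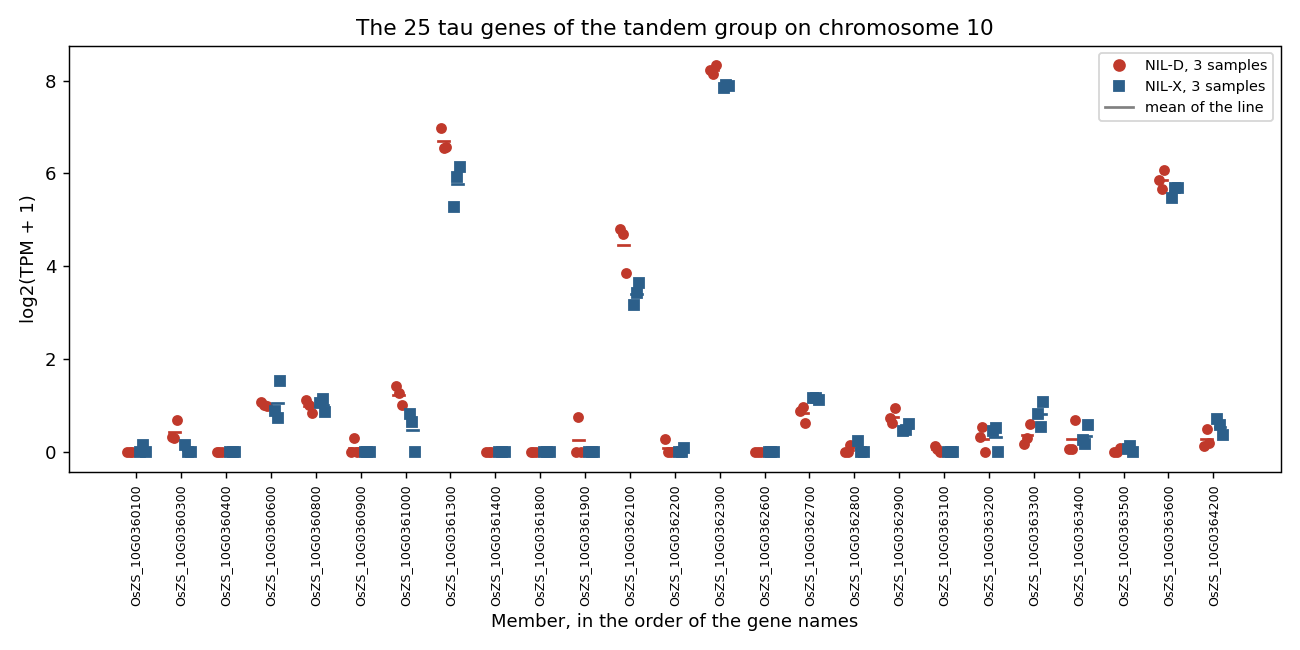
Level of the 25 tau genes of the chromosome 10 array as log2(TPM + 1), in the order of the gene names; red circles are the 3 NIL-D samples, blue squares the 3 NIL-X samples, and horizontal bars the means of these log values. Most genes lie near 0, and the NIL-D samples lie above the NIL-X samples for OsZS_10G0361300, OsZS_10G0362100 and OsZS_10G0362300.

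The tau genes outside the array lay the other way as a sum. The 20 genes summed to 83.4, 100.4 and 66.6 TPM in NIL-D and to 278, 222 and 145 TPM in NIL-X, means of 83.5 ± 16.9 and 215 ± 66.7 (SD, n = 3; exact permutation p = 0.1, 0.375 adjusted). OsZS_07G0285300 and OsZS_05G0320100 carried most of this sum. With the array higher and the rest lower in NIL-D, all 45 tau genes together summed to 574 ± 22.3 TPM across the NIL-D samples versus 569 ± 45.8 TPM across NIL-X (exact permutation p = 0.9). After median-ratio rescaling the difference in the whole tau sum was 77.7 instead of 5.52 TPM.

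OsZS_05G0320100, whose best hit is maize GST23, had 59.8, 72.3 and 26.7 TPM for NIL-D compared with 101, 93.5 and 78.3 TPM for NIL-X. All NIL-D samples lay below all NIL-X samples (log2 fold change -0.88, SE 0.36, limma adjusted p = 0.312), and NIL-D replicate 3 was the lowest. Without that sample the value was -0.45, and it ran to -1.15 without NIL-D replicate 2. OsZS_09G0279800, named after its values were seen, had 30.4 TPM in NIL-D replicate 3 against 7.54 to 15.1 TPM in the other 5 samples. The gene with the best hit to maize BZ2 (OsZS_10G0245600, chosen for this annotation and with its values known), a tau enzyme needed for anthocyanin to reach the maize vacuole, had at most 0.38 TPM in any sample and was not tested.

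The 2 members with the highest levels were phi genes. The 14 phi genes held 50.7% of the members' summed TPM, the tau genes 21.9% and the elongation factor subunits 15.6%. This phi share came mostly from few genes: OsZS_01G0532400 alone gave 54.2% of the phi sum. The median of the phi genes with a mean above 0 was 6.06 TPM. OsZS_01G0532400, with rice GSTF2 as its best hit, was the most highly expressed member. It had 456, 734 and 887 TPM in embryos of NIL-D against 695, 684 and 844 TPM in those of NIL-X. The range of NIL-D enclosed that of NIL-X, and the log2 fold change was -0.14 (SE 0.27), changing sign to 0.035 after median-ratio rescaling.

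The second phi gene was less even. OsZS_01G0258200 belongs to a tandem group of 4 phi genes on chromosome 1 that share rice GSTF1 as best hit, and the other 3 stayed below 4 TPM. It had 547, 365 and 182 TPM across the NIL-D samples versus 320, 975 and 603 TPM across NIL-X, with overlap (log2 fold change -0.79, SE 0.52, limma adjusted p = 0.493; -0.36 without NIL-D replicate 3, -0.41 without NIL-X replicate 2 and -1.21 without NIL-X replicate 1). Its lowest sample, NIL-D replicate 3, also had the lowest endosperm marker sum. Its 2 highest samples, NIL-X replicates 2 and 3, had the highest such sums. Within each line, however, its order was not that of the sums. NIL-D replicate 1 lay above NIL-D replicate 2, and NIL-X replicate 2 above NIL-X replicate 3, whereas the sums lay the other way. Close by in the gene order, OsZS_01G0259000, with a maize GST as best hit, had 12.9, 17.4 and 22.0 TPM for NIL-D compared with 26.7, 56.5 and 65.1 TPM for NIL-X. These did not overlap (log2 fold change -1.39, SE 0.36, adjusted p = 0.180), and within NIL-X their order was that of the endosperm marker sums, whereas within NIL-D it was not. The part of endosperm RNA in these values was not tested.

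Among the remaining phi genes, OsZS_03G0031700 averaged 8.64 ± 1.57 TPM in embryos of NIL-D against 10.8 ± 0.66 TPM in those of NIL-X (SD, n = 3) without overlap (log2 fold change -0.30). OsZS_09G0340700, named after its values were seen, was nearly level at 35.7, 44.7 and 36.2 TPM across the NIL-D samples versus 35.9, 43.2 and 36.5 TPM across NIL-X. Its gene model is 14317 bp long, far beyond the 648 bp of OsZS_01G0532400, and TPM is scaled by that length. One sample set OsZS_01G0257000 apart, also named after its values were seen: NIL-D replicate 1 had 14.6 TPM and the other 5 samples 0.83 to 3.59 TPM. All phi genes together summed to 1148 ± 49.8 TPM for NIL-D compared with 1495 ± 347 TPM for NIL-X (exact permutation p = 0.3). The difference of -347 TPM was -201 TPM without NIL-X replicate 2, -539 TPM without NIL-X replicate 1 and -185 TPM after median-ratio rescaling.

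**Figure D4:**
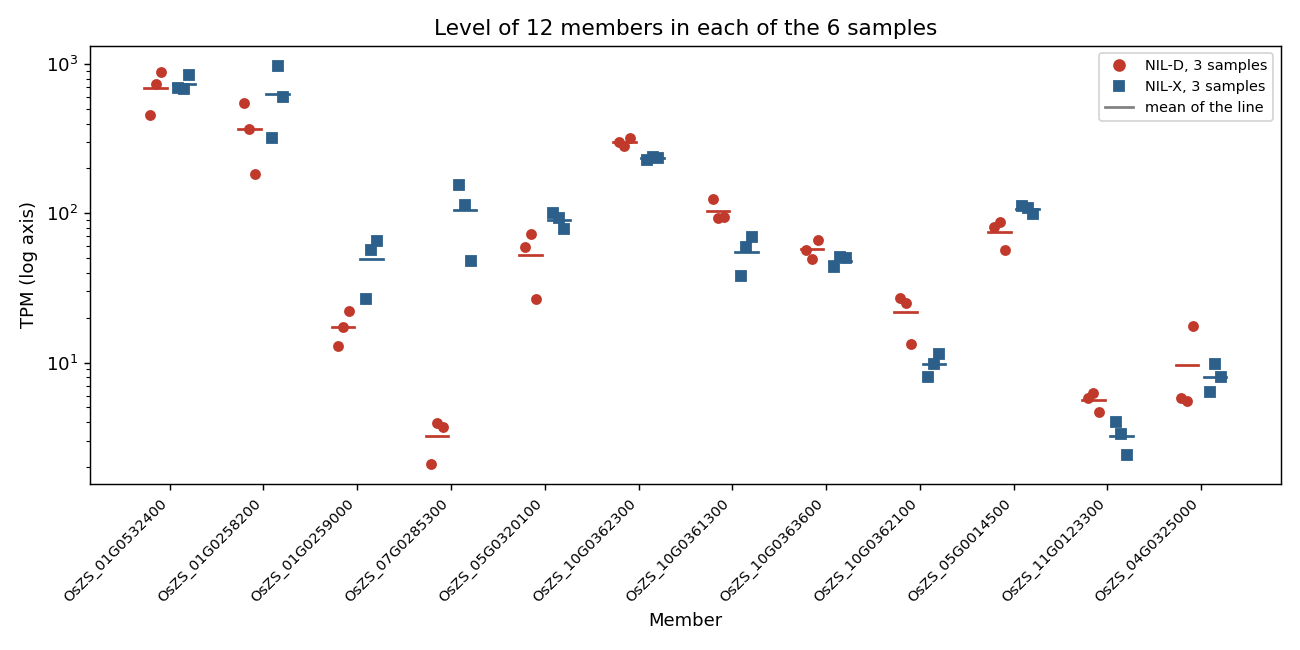
TPM (log axis) of 12 members in each sample; red circles are the 3 NIL-D samples, blue squares the 3 NIL-X samples, and horizontal bars the means. OsZS_07G0285300 shows the widest gap, 2.10 to 3.91 TPM against 48.0 to 154 TPM.

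Zeta enzymes act as maleylacetoacetate isomerases in tyrosine breakdown. The leading zeta gene, OsZS_02G0379100, had 41.0, 46.7 and 72.4 TPM in embryos of NIL-D against 68.3, 46.5 and 63.6 TPM in those of NIL-X, with overlap. OsZS_11G0123300 was the only member outside the chromosome 10 array that lay higher in NIL-D without overlap, at 5.83, 6.21 and 4.68 TPM against 3.97, 3.33 and 2.39 TPM (log2 fold change 0.65, SE 0.21, limma adjusted p = 0.238). The zeta sum was 77.0 ± 9.15 TPM across the NIL-D samples versus 78.3 ± 11.2 TPM across NIL-X (SD, n = 3).

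Smaller classes were low. The lambda gene MSTRG.6828, a new gene not in the reference annotation, has a rice homolog of IN2-1 as best hit, a protein first known in maize as induced by herbicide safeners. It was steady at 5, 4.87 and 5.09 TPM for NIL-D compared with 3.90, 4.83 and 5.26 TPM for NIL-X. The single theta gene, OsZS_11G0358500, averaged 2.76 ± 0.79 TPM in embryos of NIL-D against 3.64 ± 0.54 TPM in those of NIL-X (SD, n = 3). For the TCHQD gene OsZS_04G0325000 the levels were 5.80, 5.51 and 17.7 TPM across the NIL-D samples versus 6.36, 9.78 and 7.99 TPM across NIL-X. NIL-D replicate 3 was the only sample above 10 TPM, and without it the log2 fold change turned from 0.071 to -0.43.

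Dehydroascorbate reductases return oxidized ascorbate to its reduced form with glutathione. The DHAR1 gene OsZS_05G0014500 had 80.8, 88.1 and 57.0 TPM for NIL-D compared with 111, 109 and 99.2 TPM for NIL-X. All NIL-D samples lay below all NIL-X samples, with NIL-D replicate 3 lowest (log2 fold change -0.52, SE 0.18, limma adjusted p = 0.268). The excluded second gene, DHAR2 (OsZS_06G0115600), averaged 14.8 ± 4.21 TPM in embryos of NIL-D against 15.1 ± 1.53 TPM in those of NIL-X. OsZS_02G0215000, a homolog of the bacterial enzyme that reduces glutathionyl-hydroquinones, averaged 15.0 ± 2.10 TPM and 16.6 ± 2.70 TPM.

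The domain also occurs in the gamma subunit of elongation factor 1, which helps to deliver aminoacyl-tRNA to the ribosome. OsZS_06G0324000 was its most highly expressed gene, at 257, 247 and 136 TPM across the NIL-D samples versus 218, 202 and 188 TPM across NIL-X. NIL-D replicate 3 lay lowest for this gene and for both others, OsZS_02G0116900 and OsZS_02G0117000, which are neighbours on chromosome 2. In that sample the 3 genes summed to 285 TPM against 462 and 467 TPM in the other NIL-D samples, while NIL-X ran from 388 to 426 TPM. The direction of these small differences between the lines changed with the scaling of the samples.

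All 3 aminoacyl-tRNA synthetases had negative log2 fold changes. OsZS_01G0155500, a glutamate-tRNA ligase by its best hit, had 6.30, 5.39 and 7.45 TPM for NIL-D compared with 9.57, 7.78 and 9.12 TPM for NIL-X without overlap (log2 fold change -0.42, SE 0.17, limma adjusted p = 0.311). The methionine-tRNA ligase homolog OsZS_01G0579200 had 40.0, 38.3 and 30.9 TPM in NIL-D, all below the narrow range of 41.3 to 41.8 TPM in NIL-X (log2 fold change -0.19). Their summed difference of -12.4 TPM shrank to -2.90 TPM after median-ratio rescaling. OsZS_04G0153200, a homolog of a prostaglandin E synthase of animals, averaged 15.2 ± 0.90 TPM in embryos of NIL-D against 14.2 ± 2.57 TPM in those of NIL-X.

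Summed over all 80 members, the level was 2448, 2510 and 2280 TPM across the NIL-D samples versus 2494, 3101 and 2817 TPM across NIL-X, which is 0.228% to 0.310% of all TPM. The lines overlapped, with means of 2413 ± 119 and 2804 ± 304 TPM (SD, n = 3; exact permutation p = 0.2). Most of the difference of -391 TPM lay in the phi sum (-347 TPM), and after rescaling by median ratio the whole difference was -72.4 TPM and that of phi -185 TPM.

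**Figure D5:**
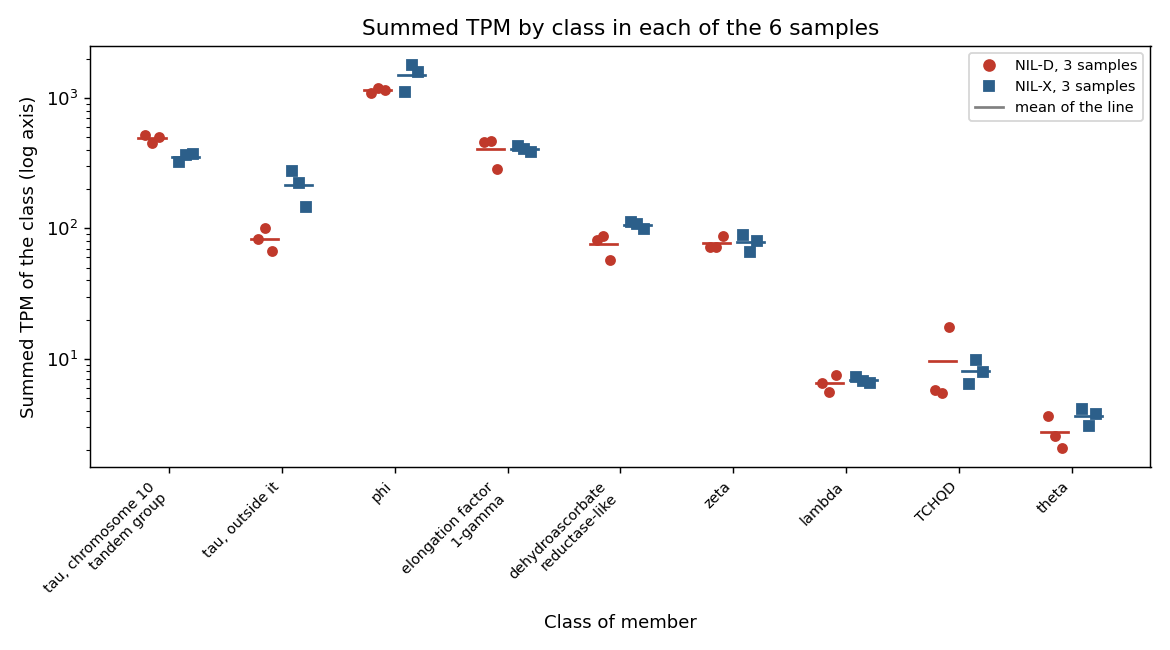
Summed TPM (log axis) of the main classes in each sample; red circles are the 3 NIL-D samples, blue squares the 3 NIL-X samples, and horizontal bars the means. The tau genes of the chromosome 10 array lie at 456 to 516 TPM in NIL-D above 325 to 372 TPM in NIL-X, and those outside the array lie the other way.

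Members with a mean below 0.5 TPM were not tested. Of the 26 among them with a mean above 0, 4 also did not overlap between the lines. These are named here for that reason, after their values were seen. The share among all genes at such levels was not counted, and the lowest values lie near the floor of TPM rounded to 2 decimals. OsZS_10G0360300, at the start of the chromosome 10 array, averaged 0.363 TPM for NIL-D compared with 0.04 TPM for NIL-X. The other 3 lay higher in NIL-X: the phi gene OsZS_10G0374700 (0.157 and 0.727 TPM), the glutaredoxin-C4 homolog OsZS_02G0430300 (0.157 and 0.78 TPM) and the tau gene OsZS_01G0689900, which was listed at 0 in every NIL-D sample and at 0.03 to 0.06 TPM in NIL-X. The tandem group of 4 tau genes on chromosome 1 to which the last belongs had no tested member.

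The genes that make, recycle and break down glutathione were described next, with the transporter family that includes carriers of its conjugates, from lists drawn up by annotation. Of 75 genes in 13 lists, 61 were tested, 1 (1.64%, beside 0.642% of all tested genes) was called higher in NIL-D and 0 lower by limma. An unadjusted p below 0.05 was found for 8 (13.1%, beside 15.6%). Without overlap, 2 lay higher in NIL-D (3.28%, beside 4.53%) and 9 lay higher in NIL-X (14.8%, beside 19.7%). The called gene was the glutaredoxin-C3 homolog OsZS_02G0326600, a member of the small thiol reductases that use glutathione. It had 66.4, 71.97 and 49.0 TPM in embryos of NIL-D against 12.7, 11.7 and 14.5 TPM in those of NIL-X, far apart and tight in NIL-X. It rose by 2.17 on the log2 scale (SE 0.18, limma adjusted p = 0.00549; 0.0562 without NIL-X replicate 1 and 0.0592 with the replicate number as a block).

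Synthesis of glutathione begins with glutamate-cysteine ligase, and neither of its genes was called (0 of 2 had an unadjusted p below 0.05). OsZS_07G0277600 averaged 202 ± 47.4 TPM across the NIL-D samples versus 164 ± 14.4 TPM across NIL-X (SD, n = 3), and OsZS_05G0026600, named with its values seen, had a log2 fold change of 0.29. The leading glutathione synthetase gene, OsZS_11G0405600, averaged 12.9 ± 2.98 TPM and 12.3 ± 0.73 TPM. Of the genes annotated as glutathione reductase or peroxidase, the leading reductase gene OsZS_02G0600400 averaged 45.7 ± 4.76 TPM for NIL-D compared with 50.1 ± 6.54 TPM for NIL-X. The peroxidase gene OsZS_04G0429800 averaged 303 ± 97.1 TPM and 284 ± 24.8 TPM, while OsZS_02G0466300, a peroxidase gene named after its values were seen, averaged 243 ± 55.1 TPM and 329 ± 20.7 TPM without overlap (log2 fold change -0.46, limma adjusted p = 0.317). Glutaredoxin-C6 (OsZS_04G0387800) was the most highly expressed glutaredoxin, at 747 ± 367 TPM in embryos of NIL-D against 941 ± 137 TPM in those of NIL-X.

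Lactoylglutathione lyase, which clears methylglyoxal with glutathione, had the highest mean over all 6 samples in these lists (887 TPM, beside 844 TPM for glutaredoxin-C6), although within NIL-D its mean of 714 TPM lay below that of glutaredoxin-C6. OsZS_08G0084200 had 540, 753 and 850 TPM across the NIL-D samples versus 1162, 1076 and 944 TPM across NIL-X, without overlap (log2 fold change -0.59, SE 0.22, limma adjusted p = 0.280). The next enzyme of that route, hydroxyacylglutathione hydrolase (OsZS_03G0625000), averaged 62.1 ± 10.8 TPM and 70.6 ± 5.55 TPM. For the breakdown of glutathione, the gamma-glutamylcyclotransferase gene OsZS_02G0284000 had 412, 365 and 311 TPM for NIL-D compared with 270, 274 and 173 TPM for NIL-X. Here NIL-D lay above NIL-X in every sample (log2 fold change 0.62, SE 0.22, adjusted p = 0.274).

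The other steps of breakdown were low. The gamma-glutamyltranspeptidase gene OsZS_04G0344100 averaged 1.84 ± 1.497 TPM in embryos of NIL-D against 2.02 ± 0.16 TPM in those of NIL-X. OsZS_07G0209000 averaged 10.04 ± 0.35 TPM and 11.3 ± 1.02 TPM. It was placed with 5-oxoprolinase by its KEGG entry alone, and its best Swiss-Prot hit is a mouse methyltransferase-like protein. OsZS_01G0703600 and OsZS_01G0703700, with Arabidopsis 5-oxoprolinase as best hit and named after their values were seen, were listed at 0 in every sample. Phytochelatin synthase, which builds metal-binding chains from glutathione, averaged 19.6 ± 3.07 TPM and 18.9 ± 1.78 TPM (OsZS_06G0001300). The C family of ABC transporters includes carriers of glutathione conjugates into the vacuole. Of its genes, 15 of 17 were tested and none was called by limma. Of the 15, 4 (26.7%) had an unadjusted p below 0.05, beside 15.6% of all tested genes, and 4 (26.7%) lay higher in NIL-X without overlap, beside 19.7%. The leading gene of the family, OsZS_03G0038400, has rice ABC transporter C family member 13 as its best Swiss-Prot hit. It averaged 267 ± 11.4 TPM across the NIL-D samples versus 252 ± 37.8 TPM across NIL-X. What these transporters carry in the embryo was not tested.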

How the data were processed

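RNA of 6 embryo samples, 3 of NIL-D and 3 of NIL-X, was grouped by the labels. By the study's methods, reads were trimmed with SeqPrep and Sickle, assembled with Cufflinks, mapped with TopHat to ZS97RS3 (RIGW3.0) and quantified with RSEM. The authors deposited TPM rounded to 2 decimals, whereas the methods speak of FPKM; the submitters' processing notes name Bowtie 0.12.2 and a mouse build. The deposited gene length, in base pairs, and the protein hits were used as annotation; the authors' mean columns were not used. TPM holds no counts, so the read depth of a value is unknown and no counting interval was computed. Strand handling is not given in the sources used here. The samples came from separate field groups in 3 plots that held both lines, and the main test did not use the plots. The limma p-values set a difference against the spread between samples within the lines. That spread is drawn towards the one of genes at a similar level.

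For genes with a mean of at least 0.5 TPM, limma 3.58.1 (R 4.3.3; lmFit, eBayes with trend, two-sided) was run on log2(TPM + 1), with p-values adjusted over all 21500 genes. Class sums were compared by two-sided exact permutation tests over samples in Python 3.11.15. The test was run on simulated data with independent noise for each gene. These held no shift between samples and no sample that stood apart, so they do not cover the case of NIL-D replicate 3. A list of RefSeq genes (another assembly) matched 21 of the 80 members by protein accession and gave no coordinates. Positions are the order of the gene names. Members, classes and lists were chosen with earlier results of these data known. Members named were those called, those without overlap (up to the 12 largest), the 8 highest and the highest of each class; of the other lists, called genes and the highest of each; others are marked as named with their values seen. Alternatives were a pseudocount of 0.1, no filter, a mean of at least 5 TPM, median-ratio rescaling, quantile normalization, no trend, adjusted p alone, the replicate number as a block, and leaving out each sample.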

Additional observations from a re-analysis of the deposited data

How the results depend on the processing

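Of 320 values of 25 named genes under the alternatives, 298 kept their direction and their side of the limit, 6 were no longer called, 1 became called and 15 changed sign; the causes were not tested. All genes called went from 138 to 57 with a mean of at least 5 TPM (fewer genes tested), to 43 with the replicate block, and to 37 to 611 without single samples (611 without NIL-D replicate 3). Members called went from 1 to 0 with the block and to 0 to 2 without single samples, and the 1 called gene among 91 tested genes of all glutathione lists (the 61 described above and the further genes of the KEGG glutathione pathway) to 0 with the block and to 0 to 4 (4 without NIL-D replicate 3). With the replicate block the adjusted p was 0.0661 for OsZS_07G0285300 and 0.0592 for OsZS_02G0326600. The deviations of same-numbered samples from their line means correlated at 0.0164, 0.202 and 0.199, and although both lines were sampled in the same plots, no label ties a number to a plot; NIL-D replicate 1 correlated best with NIL-X replicate 2 (0.0593).

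The members' median of -0.09 became 0.064 with median-ratio rescaling and 0.036 with quantile normalization, where that of all genes became 0.0016 and -0.0080. Median-ratio rescaling moved these differences in summed TPM: aminoacyl-tRNA synthetases from -12.4 to -2.90, lambda from -0.28 to 0.62, tau from 5.52 to 77.7, zeta from -1.29 to 9.09, the chromosome 10 array from 137 to 189.9, tau, phi, zeta, theta, lambda and TCHQD together from -343 to -95.1 and all members from -391 to -72.4. It also changed the sign of OsZS_01G0532400 (0.035), OsZS_02G0116900 (0.048), OsZS_02G0117000 (0.066) and OsZS_02G0215000 (0.033; 0.020 with quantile normalization), and OsZS_06G0324000 became -0.0086 with quantile normalization. Without single samples, the values whose sign changed ran from -0.013 to 0.16 for MSTRG.6828, -0.35 to 0.13 for OsZS_01G0532400, -0.29 to 0.16 for OsZS_02G0117000, -0.038 to 0.21 for OsZS_04G0153200, -0.43 to 0.34 for OsZS_04G0325000 and -0.14 to 0.32 for OsZS_06G0324000.

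Counts without overlap were also made with 2 alternatives chosen after seeing the data. After median-ratio rescaling, 2313 of all tested genes lay higher in NIL-D and 2114 in NIL-X (973 and 4243 as deposited), and 9 and 4 members did so (6 and 8). Without NIL-D replicate 3, the counts were 3417 and 6609 genes, 11 and 12 members, and 5 and 2 members of the array (5 and 1). The limma fit in that setting tested 21546 genes and 46 members. With 1 sample fewer, the values of the lines overlap less readily for any gene. These counts therefore cannot be set beside those from all samples as a gain in separation.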
